A study of Mus musculus with 15 samples.

Results

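Open chromatin was mapped by ATAC-seq, in which a transposase cuts accessible DNA, in tumour cells of clones derived from mouse pancreatic tumours. A one-clone peak is a stretch of DNA that was open in the tumour cells of 1 clone and almost unread in all the others. Such a peak was defined as an autosomal peak with 10 or more CPM (reads relative to the library total, scaled by the trimmed mean of M-values, TMM) in exactly 1 library and fewer than 2 CPM in each of the other 12. Only 4 of 66381 autosomal peaks (0.00603%) met this rule, so the members were chosen by the very CPM values given for them here. They lay inside Pvt1, Focad, Hhat and Abca16, on 4 different chromosomes.

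The libraries came from 6 clones whose tumours were T cell high (2838c3, 6421c2, 6499c4, 6555c3, 6620c1 and 7160c2) and 7 whose tumours were T cell low (6694c2, 6556c3, 6499c3, 6422c1, 6419c5, 6419c1 and 2699c4). Every clone was grown under the skin of untreated C57BL/6 mice, and 50000 tumour cells were sorted 3 weeks later. Each library is 1 clone, so a one-clone peak is also a one-library peak, and the clone, its tumour and its library preparation cannot be told apart. Neither the sorting marker nor the alleles of the parental tumours are given in the sources used here. Gene-end peaks of the epithelial genes Cdh1 and Epcam were open at 14.5 to 34.7 CPM and 7.85 to 90.8 CPM over the 13 libraries. The epithelial genes Krt8, with 3 such peaks, and Krt18 had 7.29 to 34.7 CPM and 6.44 to 18.6 CPM. The fibroblast collagen gene Col1a1 had a gene-end peak at 16.4 to 37.1 CPM, as high as that of Cdh1 and higher than that of Krt18. The leukocyte gene Ptprc had one at 4.83 to 22.2 CPM, while the T cell gene Cd3e and the endothelial gene Pecam1 had none. The part of other cell types in the values below was not tested.

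Most open regions of a genome are promoters, which are shared widely between cells, and distal elements such as enhancers, which differ more between cell types. The ATAC-seq count of a region rises with its accessibility and with the number of copies of its DNA, and the 2 were not told apart here.

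The peak in Pvt1 had by far the highest level. Pvt1 is a long non-coding RNA gene beside Myc, the growth-promoting transcription factor gene, and the pair are often amplified together in cancers. The peak is short, 203 bp at chr15:62204292-62204494 (mm10), and lies 55.7 kb from the nearer end of Pvt1 and 214 kb from Myc. It had 138 reads in the T cell low clone 2699c4, which is 46.9 CPM (95% Poisson interval 39.4 to 55.5, counting error only). This interval and those below take each read as independent. They are too narrow where both ends of a fragment were counted. The other 12 clones lay between 0 and 1.95 CPM (median 0.876, mean 0.886 ± 0.686 SD). In them the highest value rested on 2 reads in 7160c2, and 6555c3, 6419c5 and 6422c1 had 0. The ratio of 2699c4 to the mean of the others was 53.0.

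The peak in Focad, at chr4:88187632-88188069 (438 bp), was open in the T cell high clone 6421c2. Focad encodes focadhesin, a protein of focal adhesions. It had 54 reads or 16.3 CPM in 6421c2 (interval 12.3 to 21.3), against 0 to 1.96 CPM in the other clones (median 0.762, mean 0.947 ± 0.649 SD). The ratio to their mean was 17.3, and to the next highest clone, 6499c3 with 6 reads, 8.33. Among the others only 6556c3 had no read.

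The peak in Hhat, at chr1:192682219-192682600 (382 bp), was open in the same clone. Hhat encodes the acyltransferase that adds palmitate to hedgehog proteins. It had 39 reads or 11.8 CPM in 6421c2 (interval 8.40 to 16.1), against 0 to 1.95 CPM in the other clones (median 1.14, mean 0.9997 ± 0.6402 SD). The ratio to their mean was 11.8, the lowest of the 4. The next highest clones were 7160c2 at 1.95 CPM and 6556c3 at 1.82 CPM, each with 2 reads.

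The peak in Abca16, at chr7:120459242-120459630 (389 bp), was open in the T cell high clone 2838c3. Abca16 belongs to the A family of ATP-binding cassette transporters. It had 52 reads or 13.4 CPM in 2838c3 (interval 10.03 to 17.6), against 0 to 1.94 CPM in the other clones (median 0.606, mean 0.606 ± 0.641 SD). The ratio to their mean was 22.2. The highest of the others was 6499c4, whose 12 reads were the most in any closed library of the 4 peaks, and 5 clones had no read.

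Since the rule chose these peaks by these values, the levels are a description and carry no test. Per kb of peak length the open clone had 231 CPM at Pvt1, 37.3 CPM at Focad, 34.5 CPM at Abca16 and 30.9 CPM at Hhat. The last 3 therefore lay close together, and the Pvt1 peak stood apart by its short length as well as its count.

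**Figure D1:**
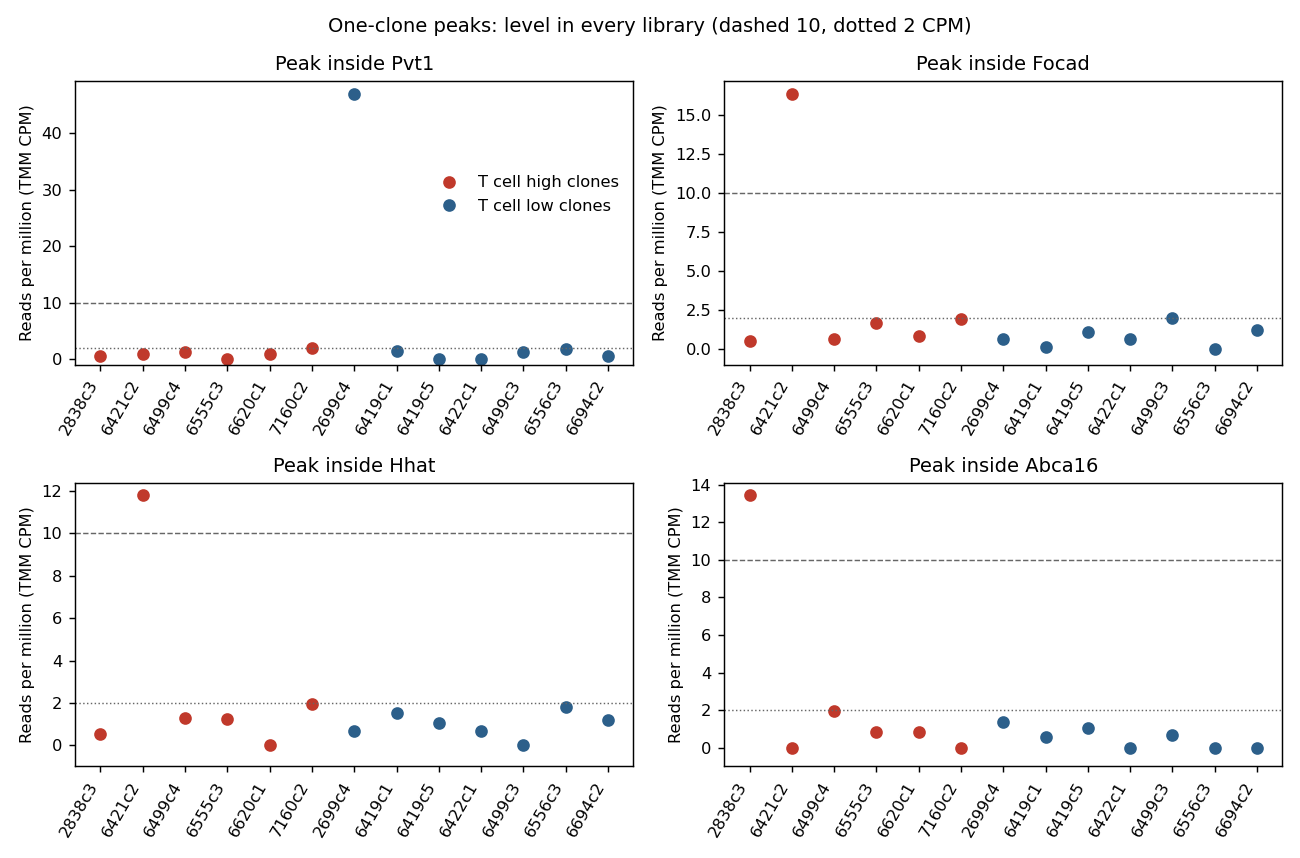
Level of each one-clone peak (CPM, vertical axis, with its own scale in each panel) in the 13 libraries, with T cell high clones in red on the left and T cell low clones in blue on the right. Each point is 1 library; 2699c4 stands at 46.9 CPM in the Pvt1 panel, 6421c2 at 16.3 and 11.8 CPM in the Focad and Hhat panels and 2838c3 at 13.4 CPM in the Abca16 panel, while every other point is below the dotted line at 2 CPM.

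The levels in the closed libraries rest on very few reads. Of the 48 values in them, 11 were 0 and 22 were exactly 2 reads, and 43 were even. Over all autosomal peaks and libraries, 2 reads occurred 29447 times and 1 read 6238 times. Each fragment can add a read for either end. In 7160c2, the shallowest library with 968296 counts, 2 reads are 1.95 CPM, and in 6556c3, with 1030616 counts, they are 1.82 CPM. With each read taken as independent, the limit that a count of 0 allows, 3 reads, is 2.92 CPM in 7160c2 and 2.73 CPM in 6556c3. In these 2 libraries closure below 2 CPM was therefore not detectable at this depth. The next limits were 1.81 CPM in 6694c2 and 1.61 CPM in 6419c5. Where both ends of a fragment were counted all these limits are higher, so closure may have been undetectable in more libraries. The deepest library, 6419c1 with 7369228 counts, needs 71.8 reads to reach 10 CPM. Its limit, on the same terms, is 0.418 CPM.

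All 4 peaks sat against the closed threshold, with a next highest clone at 1.94 to 1.96 CPM. Without the TMM factor the same reads gave 2.07 CPM in 7160c2 at Pvt1, Focad and Hhat and 2.02 CPM in 6499c4 at Abca16, and no peak met the rule. With every library thinned to the depth of 7160c2, the count was also 0. At that depth 2 reads are 2.07 CPM before any TMM factor, so 2 reads in another library can be enough to break the rule. Little can therefore be read from this 0.

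Just outside the open threshold lay a peak inside Adgrv1, an adhesion G protein-coupled receptor gene, at 9.82 CPM in 2838c3 with no other library above 1.99 CPM. The next were peaks inside Mcc at 6.38 CPM in 6556c3 and inside Meox2 at 5.84 CPM in 7160c2. Just outside the closed threshold lay peaks inside Ino80d, a subunit gene of a chromatin remodelling complex (10.1 CPM in 6499c3, 2.33 CPM in 2838c3), and inside Heatr9 (10.1 CPM in 6620c1, 2.42 CPM in 6421c2). The third, 73.5 kb from Gm35537, had 12.7 CPM in 6421c2 and 2.52 CPM in 6555c3.

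Few peaks joined height in 1 clone to absence from all the others. The number of autosomal peaks with 10 CPM or more in at least 1 library was 51097, and 8296 of them reached it in exactly 1. Of those, 776 had all other clones below 6 CPM, 247 below 5, 75 below 4, 13 below 3 and 4 below 2. No peak had all the others below 1 CPM. Seen from the closed side, 79 peaks had exactly 12 libraries below 2 CPM, and the highest library of the other 75 stayed under 10 CPM.

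**Figure D2:**
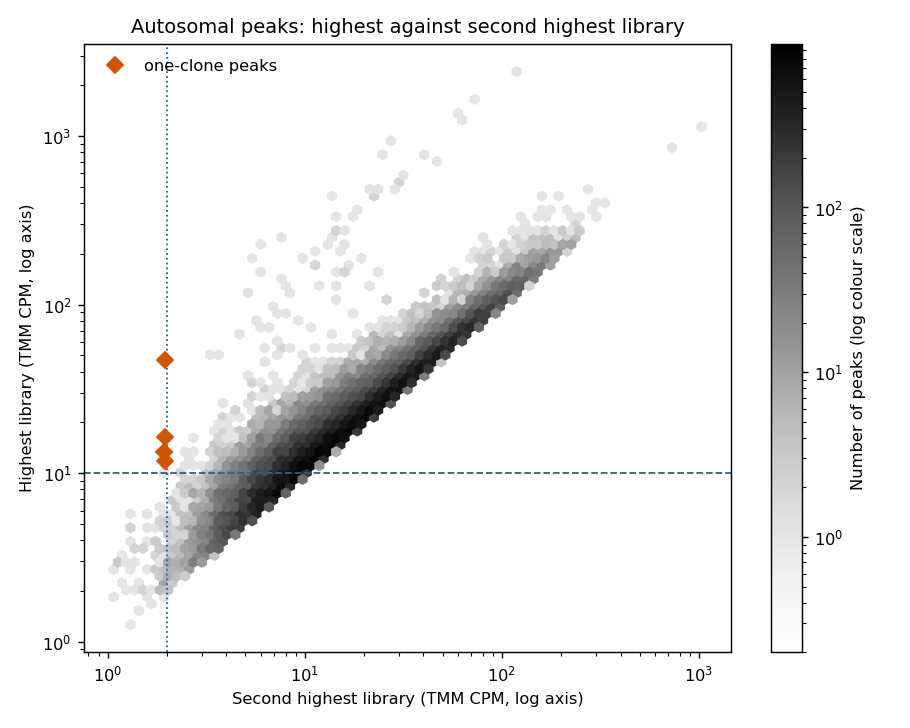
Highest library (vertical) against second highest library (horizontal) for autosomal peaks, both in CPM on log axes, with shading for the number of peaks. The 4 one-clone peaks (diamonds) lie left of the dotted line at 2 CPM and above the dashed line at 10 CPM, away from the diagonal band where most peaks lie.

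The neighbouring peaks, which the rule did not use, set Pvt1 apart. All 59 other peaks within 300 kb were highest in 2699c4. A stretch was drawn outward from the one-clone peak until 2 peaks in a row were under 5 times the mean of the other clones. It spanned 687 kb, chr15:61875029-62561648, with 62 other peaks at 6.31 to 99.7 times that mean (median 32.7), the lower limit of 5 being largely set by how it was drawn. This stretch took 2.05% of the counts of 2699c4, against a median of 0.0607% in the other clones. The peak at the start of Myc had 2412 CPM in 2699c4 and 38.2 to 117 CPM in the others. The start of Pvt1 had 488 CPM in 2699c4 and 3.37 to 21.4 CPM in the others. At both genes 2699c4 stood clear of every other clone.

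Within the stretch the one-clone peak had one of the higher ratios, 53.0 against a median of 32.7, but 5 of the 62 neighbours had a higher one. The rule itself favours a high ratio, as it asks for low values in the other clones. A peak 1.26 kb away had 254 CPM in 2699c4 against a mean of 4.71 CPM in the others, a ratio of 54.0. It missed the rule because every other clone was above 2 CPM there, from 2.53 to 7.29 CPM. No neighbour had all other clones below 2 CPM, and 2 had them below 5 CPM. Outside the stretch the ratios returned to about 1 or lower, as the plot of neighbouring peaks shows.

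Around Hhat fewer peaks were called, and the nearest on the side of lower coordinates was 492 kb away. The 7 other peaks within 300 kb therefore all lay on the other side. They had ratios of 6421c2 to the other clones from 1.48 to 8.54 (median 2.64), and 6421c2 was the highest library at 3. The largest was at the start of Sertad4, a SERTA domain gene, 173 kb away, where the lncRNA gene Gm15867 also starts. It had 53.9 CPM in 6421c2, against 1.55 to 21.4 CPM in the others (mean 6.31 ± 5.77 SD). 6421c2 was thus the highest of the 13 there without being alone.

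The start of Hhat itself was not particular to 6421c2. Its peak had 7.27 CPM in 6421c2 and 4.90 ± 3.96 CPM (SD, n = 12) in the others, and 6421c2 ranked 4 of 13. A peak of 151 bp only 0.376 kb from the one-clone peak had 1.51 CPM in 6421c2 and up to 3.89 CPM in 7160c2. 6421c2 ranked 2 of 13 at this neighbour, at 2.33 times the mean of the others. In 7160c2 2 reads are already 1.95 CPM, so the order of these clones rests on very few reads.

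Around Focad 5 of 20 peaks within 300 kb were highest in 6421c2, with ratios from 0.211 to 5.17 (median 1.47). The highest ratio belonged to a peak 32.1 kb away inside Focad, with 33.9 CPM in 6421c2 and 6.56 ± 2.85 CPM (SD, n = 12) in the others. The nearest peak, 8.24 kb away, had 6.66 CPM in 6421c2 and 6.67 ± 2.13 CPM in the others. Raised and unraised peaks therefore alternated along the gene.

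The start of Focad was open in every clone, at 104 CPM in 6421c2 and 58.2 ± 18.3 CPM (SD, n = 12) in the others. Here 6421c2 ranked 2 of 13, after 6556c3 at 106 CPM. Over the other peaks within 1 Mb of the one-clone peak the median log2 ratio of 6421c2 to the other clones was 0.60, also second to 6556c3 with 0.84. These ratios are centred on each library's own median over autosomal peaks.

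The Abca16 peak stood alone. The nearest other peak was 132 kb away and no peak lay at either end of Abca16. Within 300 kb 2838c3 was the highest library at 2 of 17 peaks, and its ratios ran from 0.149 to 3.71 (median 0.877). At the start of Anks4b, which encodes an ankyrin repeat protein of the epithelial brush border, a peak had 8.27 CPM in 2838c3 and 20.6 ± 7.74 CPM (SD, n = 12) in the others, and 2838c3 ranked last of 13. The median log2 ratio within 1 Mb was -0.17 in 2838c3, near that at Hhat in 6421c2 (0.23) in size, whereas at Pvt1 in 2699c4 it was 4.45.

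**Figure D3:**
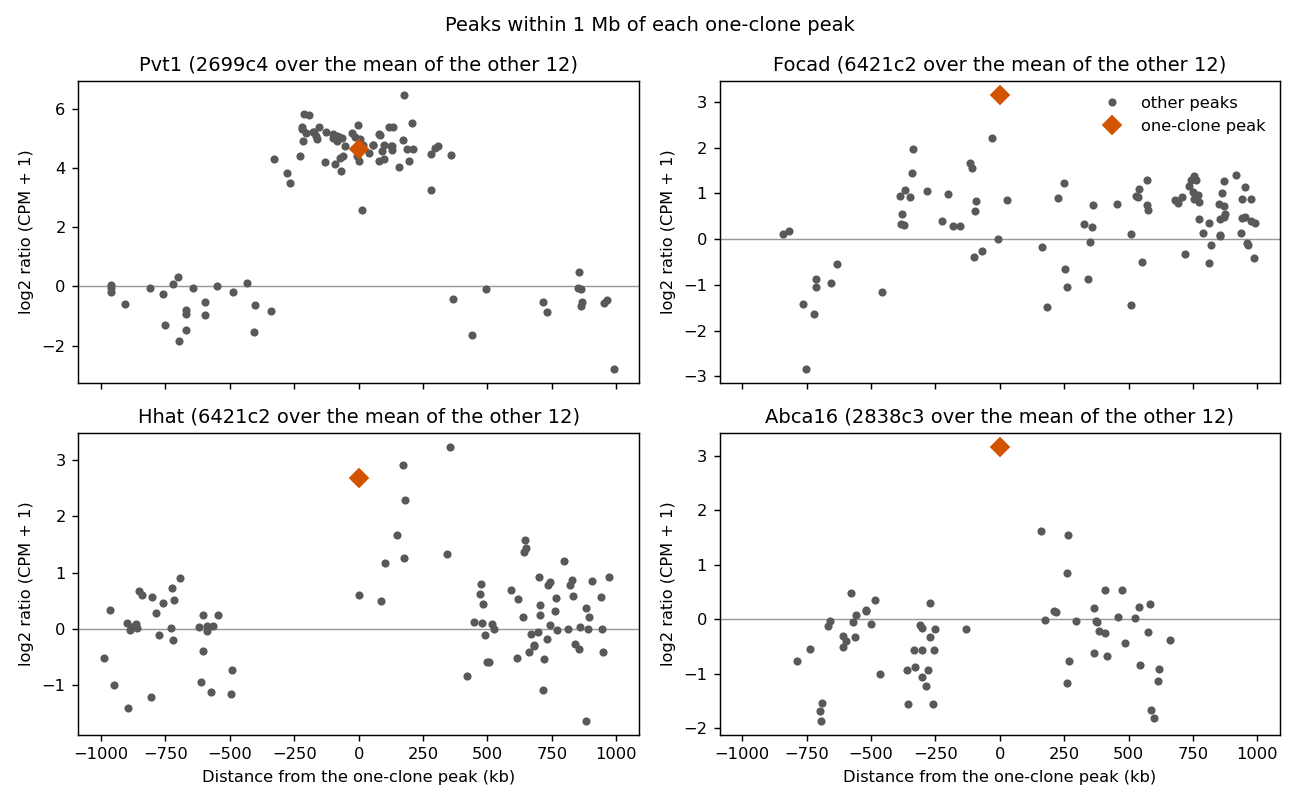
Log2 ratio (CPM + 1) of the open clone to the mean of the other 12 for every peak within 1 Mb (vertical), against distance from the one-clone peak in kb (horizontal), with the one-clone peak as a diamond and a different vertical scale in each panel. In 2699c4 a plateau surrounds Pvt1 and ends sharply on both sides, some peaks around Hhat, all on the side where peaks were called nearby, and around Focad are raised in 6421c2, and the diamond at Abca16 stands above all its neighbours in 2838c3.

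None of the 4 peaks was near a gene start, so the start sequences of the protein-coding host genes are given with that of Sertad4, whose start was raised with the Hhat peak. Each sequence is RefSeq's (GRCm38.p6), 250 bases before the start to 50 after it, on the gene's own strand. Capitals mark CG, which reads the same on both strands. Over 32851 promoters the median was 7 CG and 94.6% held at least 1.
Hhat, chr1:192771170-192771469, minus strand: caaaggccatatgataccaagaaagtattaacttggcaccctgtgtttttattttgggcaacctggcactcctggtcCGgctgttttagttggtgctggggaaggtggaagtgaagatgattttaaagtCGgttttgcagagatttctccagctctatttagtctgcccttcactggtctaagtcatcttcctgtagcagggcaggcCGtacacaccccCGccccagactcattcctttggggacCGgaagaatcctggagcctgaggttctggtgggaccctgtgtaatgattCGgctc
Sertad4, chr1:192855703-192856002, minus strand: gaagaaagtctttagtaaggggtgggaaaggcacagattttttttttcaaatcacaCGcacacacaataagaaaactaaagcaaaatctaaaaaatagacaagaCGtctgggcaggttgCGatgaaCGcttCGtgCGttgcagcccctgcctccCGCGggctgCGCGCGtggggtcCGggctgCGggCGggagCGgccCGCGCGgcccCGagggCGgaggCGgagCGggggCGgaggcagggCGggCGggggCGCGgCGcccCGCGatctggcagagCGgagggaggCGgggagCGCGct
Focad, chr4:88094380-88094679, plus strand: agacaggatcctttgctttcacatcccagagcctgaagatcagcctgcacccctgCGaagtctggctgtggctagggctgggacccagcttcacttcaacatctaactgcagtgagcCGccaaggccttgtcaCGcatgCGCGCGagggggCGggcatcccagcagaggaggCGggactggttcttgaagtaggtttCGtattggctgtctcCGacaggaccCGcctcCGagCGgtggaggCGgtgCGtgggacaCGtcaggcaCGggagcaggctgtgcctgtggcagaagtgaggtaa
Abca16, chr7:120409397-120409696, plus strand: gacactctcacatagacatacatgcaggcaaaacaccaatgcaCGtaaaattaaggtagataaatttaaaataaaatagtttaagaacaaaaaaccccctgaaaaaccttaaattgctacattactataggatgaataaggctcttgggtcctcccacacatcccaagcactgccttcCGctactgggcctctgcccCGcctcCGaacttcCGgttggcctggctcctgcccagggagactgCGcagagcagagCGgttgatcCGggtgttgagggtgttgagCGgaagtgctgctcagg

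The Sertad4 start shown, the one under the raised peak, held 34 CG, a number that 7.73% of all promoters reach. A second Sertad4 start in the same table, with no peak, held 5 (62.0% reach it). The Focad start, open in every clone, held 17 (31.4% reach it). The Hhat start held 6 (56.4%) and the Abca16 start, where no peak was called, 9 (45.8%). These counts describe the windows and are not linked here to any difference between clones.

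By clone, 6421c2 had 2 of the 4 peaks, 2838c3 and 2699c4 had 1 each and the other 10 had none. T cell high clones averaged 0.5 ± 0.837 one-clone peaks (SD, n = 6) and T cell low clones 0.143 ± 0.378 (SD, n = 7). The difference was 0.357 (two-sided exact permutation over 1716 splits, p = 0.437). With all but 3 clones at 0, the smallest p these counts allow is 0.0699, so the test could not have passed 0.05 and says nothing about the groups. The number per clone was compared with 2 technical measures over the 13 libraries. Against total count, Pearson's r was 0.11 (permutation p = 0.705, adjusted 0.705) and Spearman's rho 0.39 (p = 0.192, adjusted 0.192). Without 6419c1 and 6499c4 r was 0.61. Against the TMM factor, r was -0.47 (p = 0.109, adjusted 0.218) and rho -0.48 (p = 0.0988, adjusted 0.192), and r was -0.60 without 6499c3 and 6556c3. Neither relation passed its test, and 4 peaks leave most clones tied at 0.

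In position the 4 peaks are too few to set apart from other peaks. All lay inside a gene record, 3 of them protein-coding, and 49.6 to 93.0 kb from its nearer end, and none was within 1 kb of a gene end. Of all autosomal peaks 18.9% were within 1 kb of a protein-coding gene end, 54.3% inside a protein-coding gene and 26.2% more than 50 kb from such an end. The widths of the 4 ran from 203 to 438 bp (median 385.5 bp), against a median of 708 bp for all autosomal peaks. None had another one-clone peak on its chromosome. None passed the low-count filter used for the TMM factors, so they were not among the 59252 peaks that set those factors. A peak read in 1 library has too few libraries above the filter's minimum to be kept.

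Wider thresholds, chosen after the values were seen, show which features go with the closed limit. With the other clones below 3 CPM there were 13 peaks (0.0196%), 6 of them in 6421c2 and 2 in 6556c3. Those added were inside Gpr158, a G protein-coupled receptor gene (16.05 CPM in 6421c2), Palld, which encodes the actin-binding protein palladin (10.9 CPM in 6421c2), Cracd (13.6 CPM in 7160c2), Dytn (10.9 CPM in 6556c3), Ino80d and Heatr9, or near Snx2, Gm39227 and Gm35537. None of the 13 was within 1 kb of a gene end.

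With the other clones below 5 CPM there were 247 peaks (0.372%), 138 in T cell high and 109 in T cell low clones. The clones with most were 6556c3 with 54, 2838c3 with 40, 7160c2 with 38 and 6421c2 with 31, and 6499c4 had 1. The 2 shallowest libraries, 7160c2 and 6556c3, together held 37.2% of them, and their peaks rested on a median of 12 reads, against 43 in the other clones. The order of the clones thus moved with the threshold, and the part of depth in it was not tested.

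**Figure D4:**
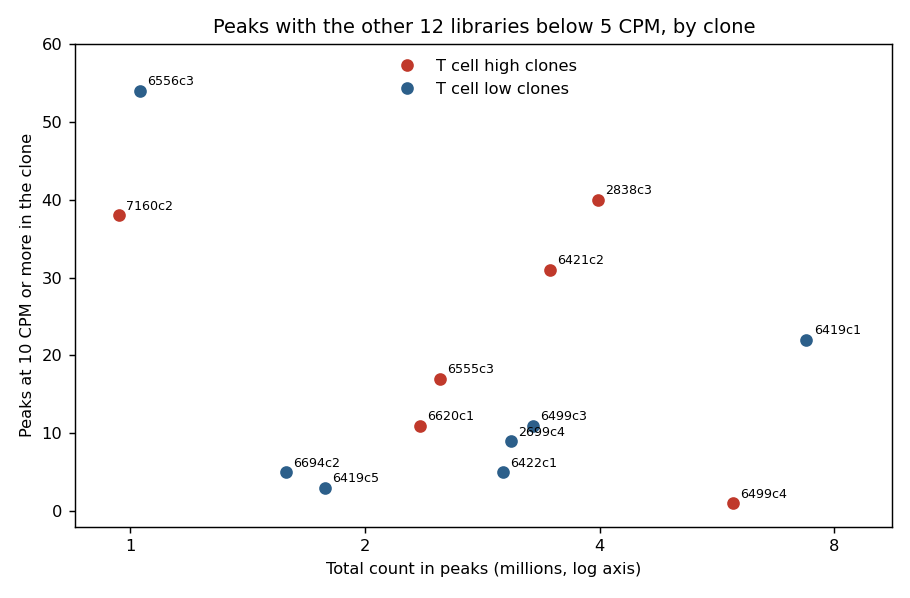
Number of peaks at 10 CPM or more in a clone with the other 12 below 5 CPM (vertical) against the total count in peaks of that clone (horizontal, log axis), 1 point per clone, T cell high in red and T cell low in blue. The 2 shallowest libraries, 6556c3 with 54 and 7160c2 with 38 peaks, are among the highest, but 2838c3 with 40 and 6421c2 with 31 are not shallow.

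Of these 247 peaks 3.64% were within 1 kb of a protein-coding gene end. The share was 6.40% for the 8049 other peaks that reached 10 CPM in exactly 1 library, and 56.5% for the 12861 peaks at 10 CPM or more in every library. Median widths of the 3 sets were 403, 559 and 1171 bp, and median levels in the highest library 11.5, 11.8 and 55.8 CPM. The sets thus differ in height as well as in width and position.

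Few of the 247 lay together. Only 12 had another of the same clone within 100 kb. Of 9 pairs within that distance 6 were of 1 clone (66.7%), while 19.04% of all pairs on a chromosome were. With up to 500 kb between neighbours, the longest runs held 3 peaks each. One, in 2699c4, had 2 peaks inside Pvt1 and 1 that lay 141 kb beyond its end. The other, in 6556c3, lay at Dpp3 and Pacs1.

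Genes of 16 lists on other cell types, cell identity, signalling and tumour suppression were also looked up. Of 541 list genes in the reference, 390 were linked to any autosomal peak, and 0 to a one-clone peak. Only 3 of 15293 linked protein-coding genes had one, so nothing can be read from the 0. With the other clones below 5 CPM, 8 were (2.05%), against 1.29% of the linked protein-coding genes. Among them were the tumour suppressor and fragile site genes Fhit (13.3 CPM in 6421c2, 44 reads) and Wwox (13.9 CPM in 6422c1, 42 reads). The protease gene St14 and its inhibitor Spint1 had 13.6 CPM and 14 reads each in 7160c2. The others were the neural adhesion genes Cntn4 (7160c2, 12 reads) and Cntn5 (6422c1, 34 reads), the transcription factor gene Sox14 (7160c2, 14 reads) and the WNT pathway factor Lef1 (6556c3, 12 reads). Those in 7160c2 and 6556c3, the 2 shallowest libraries, thus rested on 12 to 14 reads. The difference between the 2 shares was not tested. No list of immune, stromal or endothelial markers other than T and NK cells, through Lef1, had a member among these 8 genes.

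Clones that share the first 4 digits of their name, 6419c1 with 6419c5 and 6499c4 with 6499c3, were examined for peaks open in exactly both. No peak was open in exactly 2 clones with the others below 2 CPM, in these or any of the other 76 pairs. With the others below 5 CPM the same-number pairs had 0. The other 76 pairs had 54 in all, with a median of 0 and a mean of 0.711 per pair, and at most 5 in a pair. Nothing can therefore be read from the 0.

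A rule on ratio instead of absence was also added after the values were seen, and it too is a description. It kept peaks at 10 CPM or more in the highest clone and at least 5 times the next clone. This gave 93 autosomal peaks (0.14%), including all 4 one-clone peaks. In 2699c4 there were 62, every one of them in the stretch around Myc and Pvt1. Of the 31 elsewhere, 22 were in 6421c2 and 9 in other clones, and 3 lay within 1 kb of a protein-coding gene end.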

How the data were processed

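The authors deposited a table of raw read counts over merged peaks, all whole numbers. featureCounts 1.5.3 had counted them without options for read pairs or strand, from alignments named as free of duplicates, per the file headers. Per the submitters' processing notes, the genome was mm10, and DESeq2 is listed. Which aligner, peak caller and merging rule were used is not given in the sources used here. The table held 67945 peaks and 13 columns, matched to clones by title. Clones of intermediate T cell content (2) were not analysed here. Total counts ran from 968296 to 7369228 per library. Reads, not fragments, were counted, so they are not independent molecules. Intervals and floors take each read as independent and cover counting error only. Where both ends of a fragment were counted, the intervals are too narrow and the floors too low.

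CPM used all counts of a library times a TMM factor (edgeR 4.0.16, R 4.3.3, from the 59252 peaks that pass filterByExpr). Genes came from a RefSeq table of GRCm38.p6 without exons, so exon, intron and UTR were not assigned. A gene end is either end of a record; a peak was linked to a gene it lies in or whose end is within 50 kb. The ratio in the plot of neighbours added 1 CPM. The median log2 ratios within 1 Mb also added 1 CPM. From them each library's median ratio over all autosomal peaks other than the one-clone peaks was subtracted. The rule was also run on simulated data with planted peaks. Those data held no paired read ends, so they do not show how the rule behaves at the closed threshold here. The 8 planned tests over clones (gene-end share, distance, gene share, width and neighbours in 4 windows) needed 10 one-clone peaks per clone and were not run, since no clone had them. Peaks named were the 3 highest per clone, those nearest each threshold, runs, and the 2 highest per gene list. Members and lists were chosen with earlier results of these data known. Alternatives were another scaling, other thresholds, thinning, a read minimum, chromosome X and leaving out each library. Groups follow the labels' T cell class; each library is 1 clone, so p-values measure the spread between clones. Python 3.11.15 with numpy 2.4.6, scipy 1.17.1 and pandas 2.3.3 was used.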

Additional observations from a re-analysis of the deposited data

Results flagged for a closer look

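A library was looked at again where it stood far from the rest of its own group by Dixon's test, in 28 groups of values; 11 were picked out, and chance picks about 1 in 20. Of these, 4 are the one-clone peaks themselves, which were chosen for this property, so that the share picked out cannot be set against chance for them: 46.9 CPM at Pvt1 in 2699c4, 16.3 CPM at Focad and 11.8 CPM at Hhat in 6421c2, and 13.4 CPM at Abca16 in 2838c3.

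Around Myc and Pvt1 2699c4 stood apart from the other T cell low clones in each measure taken: 2412 CPM at the start of Myc, where the next T cell low clone had 117 CPM, 488 CPM at the start of Pvt1, where it had 20.6 CPM, and a median log2 ratio within 1 Mb of 4.45, where it had -0.76. The count of 1 one-clone peak in 2699c4, where the other T cell low clones had 0, was also picked out, but it is the Pvt1 peak counted again and no further measure.

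Around Focad the T cell low clone 6556c3, not the open clone, stood apart, with 106 CPM at the start of Focad and a median log2 ratio within 1 Mb of 0.84, where the next T cell low clones had 65.9 CPM and -0.02. Around Hhat 6499c3 was the low one among T cell low clones, with a median log2 ratio of -0.52, where the next had -0.11.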

How the results depend on the processing

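The number of one-clone peaks was 4, and it was 4 with RLE size factors, with at least 30 reads in the open library, with chromosome X added and with TMM over all peaks, and 3 with TMM on totals of filtered peaks. It was 0 without a TMM factor, 0 with others below 1 CPM, 0 after thinning and 1 with 20 CPM as the open threshold. With the limits of 3 and 5 CPM, added after the data were seen, it was 13 and 247. Leaving out 1 library gave 2 to 5, with 2 without 6421c2. The T cell high minus T cell low difference per clone, 0.357, reversed at 20 CPM (-0.14, exact permutation p = 1), and ran from 0.0571 to 0.5 with a library left out. The share held by the clone with most was 50%, 100% at 20 CPM, and 25 to 66.7% with a library left out. The correlation with total count, 0.11, turned to -0.0033 at 20 CPM, -0.11 below 3 CPM and -0.21 below 5 CPM, and ran from -0.10 (without 6555c3) to 0.37 with a library left out. No Pearson p there was below 0.222; Spearman's rho without 6556c3 was 0.60 (unadjusted permutation p = 0.0469). Peaks shared by exactly 2 clones of one number stayed at 0 in each setting run. With no members left, the settings that gave 0 have no share or correlation; the planned per-clone tests were not run. The cause of these shifts was not tested, except that the TMM factor moves 2 reads in 7160c2 and 12 reads in 6499c4 across 2 CPM. Depth limits the closed side in the shallowest libraries. No paired analysis was run, since each library is a different clone and the labels name no pairs. Clones that share the first 4 digits of their name were counted as separate units in the tests.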

Other observations

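Of the peaks at 10 CPM or more in the highest clone and at least 5 times the next, the 22 of 6421c2 lay on chromosomes 4, 8 and 17 with 6 each, on chromosome 1 with 3 and on chromosome 2 with 1. Of all 66381 autosomal peaks, chromosomes 4, 8 and 17 held 3684, 4062 and 2836, and chromosomes 1 and 2 held 4968 and 5306. The spread over chromosomes was not tested. A peak inside Prkce, a protein kinase C gene, had 56.6 CPM in 6421c2 and at most 6.32 CPM elsewhere. A peak inside Bnc2, a zinc finger gene, had 47.2 CPM in 6421c2 and at most 5.99 CPM elsewhere. On chromosome 1 a peak at an end of Syt14, a synaptotagmin gene, had 28.5 CPM in 6421c2 and at most 5.47 CPM elsewhere. In 6556c3 a peak at an end of Tbx3, a T-box transcription factor gene, had 71.1 CPM and at most 10.9 CPM elsewhere. These genes were named after their values were seen.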
